A study of Mus musculus with 12 samples.

Results

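The genes followed here are 10 sarcomere genes that the heart uses in chamber-specific or stage-specific versions: the myosin light chains Myl2, Myl3, Myl4 and Myl7, the troponins Tnnt2, Tnni1, Tnni3 and Tnnc1, and the tropomyosins Tpm1 and Tpm2. They were chosen by name, and every probe whose gene name on the array equals one of these symbols was taken, which gave 17 of 55681 probes and 10 of 34844 gene names. The detection limit, a signal well above background in 3 or more of a group's 4 hearts, was passed by 16 probes of 9 genes and missed by Tnni1.

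Left ventricles of 12 mice aged 6 months were measured on 12 one-colour Agilent mouse arrays, with 4 arrays per group, as the free wall with the apex and without the septum. Nkx2-5ΔTrbE10 mice (TrbE10, named Nkx2-5Δtrab in the sample labels) came from mothers given tamoxifen at embryonic days E10.5 and E11.5, and Nkx2-5ΔTrbE14 mice (TrbE14, Nkx2-5Δcomp in the labels) from mothers given it at E13.5 and E14.5. In both mutants a floxed Nkx2-5 allele without its neomycin cassette was deleted by Cx40-creERT2, a tamoxifen-dependent Cre made in Cx40-expressing cells, which at these stages include the trabecular myocardium, so that ventricular RNA mixes deleted and undeleted cells. The newborns of injected mothers were delivered by caesarean section and raised by CD1 females. The labels call the controls mice without injection. The methods instead describe littermates homozygous for the floxed allele and with wild-type Cx40 alleles (Cx40+/+), so without the Cre. If the controls were not injected, tamoxifen, caesarean delivery and fostering cannot be told apart from the deletion.

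The probe for Nkx2-5, the deleted gene, read below the lowest control in every mutant heart, with a log2 difference of -0.66 (SE 0.14, limma adjusted p = 0.0459) in TrbE10 and -0.59 (SE 0.14, adjusted p = 0.106) in TrbE14. All 12 tested cardiomyocyte markers were well above background. By limma 0 of the 12 were called in either mutant, where 1.93% of all genes were in TrbE10 and 0.66% in TrbE14. Their median log2 difference was -0.10 in TrbE10 and -0.02 in TrbE14, and 3 and 5 of the 12 were higher. Ryr2 differed by -0.41 (adjusted p = 0.0918) and Atp2a2 by -0.32 (adjusted p = 0.120) in TrbE10. For both, every TrbE10 heart lay below every control. All TrbE10 arrays lay on 1 slide and all control and TrbE14 arrays on another, so that slide and TrbE10 cannot be told apart, while the comparison of TrbE14 with control lies within 1 slide. Y-linked signal was found in 1 of the 4 controls, 2 of the TrbE10 hearts and 3 of the TrbE14 hearts. In whole tissue, fewer cells of a type and less RNA per cell cannot be told apart.

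Muscle shortens when myosin heads pull on actin, and each head carries an essential and a regulatory light chain. Calcium starts this by binding troponin C, which, through troponin I and troponin T, moves tropomyosin along the actin filament. Ventricular muscle uses the regulatory chain Myl2 and the essential chain Myl3, whereas atrial muscle, and ventricular muscle of the embryo, use Myl7 and Myl4. Troponin I switches around birth from Tnni1, the slow skeletal form, to Tnni3, the cardiac form. Tpm1 is the main striated tropomyosin of the mouse heart, and Tpm2 is prominent in smooth and slow skeletal muscle.

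The probes that carry the results are given first, with positions in mm9, the build of the array files. The brightest Tpm2 probe lies at chr4:43532262-43532321 and the second at chr4:43531276-43531335, both on the minus strand. The probes for Myl7 (chr11:5798186-5798435, minus strand), Tnnc1 (chr14:32023360-32023776, plus strand) and Tnni1 (chr1:137705328-137706203, plus strand) match stretches longer than their 60 bases and so span an intron, and that of Tnni3 lies at chr7:4472043-4472102 on the minus strand. Capitals in the Myl7 and Tnnc1 probes mark 12 codons that have the pattern of an EF-hand calcium loop, the fold that both proteins share, and were found as a codon for aspartate at the first position, glycine at position 6 and aspartate or glutamate at position 12. The pair of troponin I probes is shown because the fetal and the adult form are read by unlike sequences, and the pair of Tpm2 probes because the brightest of them gave the largest group difference among the brightest probes of the 9 measured genes.
Myl7: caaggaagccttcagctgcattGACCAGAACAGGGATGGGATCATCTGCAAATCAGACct
Tnnc1: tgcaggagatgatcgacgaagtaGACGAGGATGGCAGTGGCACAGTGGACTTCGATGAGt
Tnni1: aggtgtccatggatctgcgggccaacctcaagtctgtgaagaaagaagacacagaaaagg
Tnni3: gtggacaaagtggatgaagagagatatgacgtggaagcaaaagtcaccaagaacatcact
Tpm2, brightest probe: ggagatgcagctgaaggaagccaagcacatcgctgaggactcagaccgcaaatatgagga
Tpm2, second probe: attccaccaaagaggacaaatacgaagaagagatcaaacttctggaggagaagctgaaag

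None of the 9 measured genes was called in any comparison. Signals were log2-transformed and quantile normalized, 1 limma model held the 3 groups, and a gene was called when its brightest filtered probe had a Benjamini-Hochberg adjusted p under 0.05 over all 24593 filtered probes. By this rule 0 of 9 were called in TrbE10 against control, where 1.93% of 18021 genes were, 0 of 9 in TrbE14 against control, where 0.66% were, and 0 of 9 between the mutants, where 0% were. SAM between pairs of groups, which the study's methods used for its Venn diagrams, was run here on these signals and also called 0 of 9 in each comparison. The study's SAM over all groups at once was not run. At an unadjusted limma p under 0.05, 0 of 9 differed in TrbE10 (16.8% of all genes), 1 of 9 in TrbE14 (13.9%) and 1 of 9 between the mutants (5.96%), and in both cases the gene was Tpm2. For 0 of the 9 genes did the 4 hearts of a mutant all lie on one side of the 4 controls, against 10.6% of all genes in TrbE10 and 10.1% in TrbE14, and the mutants were apart from each other in 0 of 9, against 3.37%. With 9 genes, the median log2 difference was -0.04 in TrbE10 and 0.04 in TrbE14, beside -0.02 and -0.03 over all genes tested. The mutants share their controls.

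**Figure D1:**
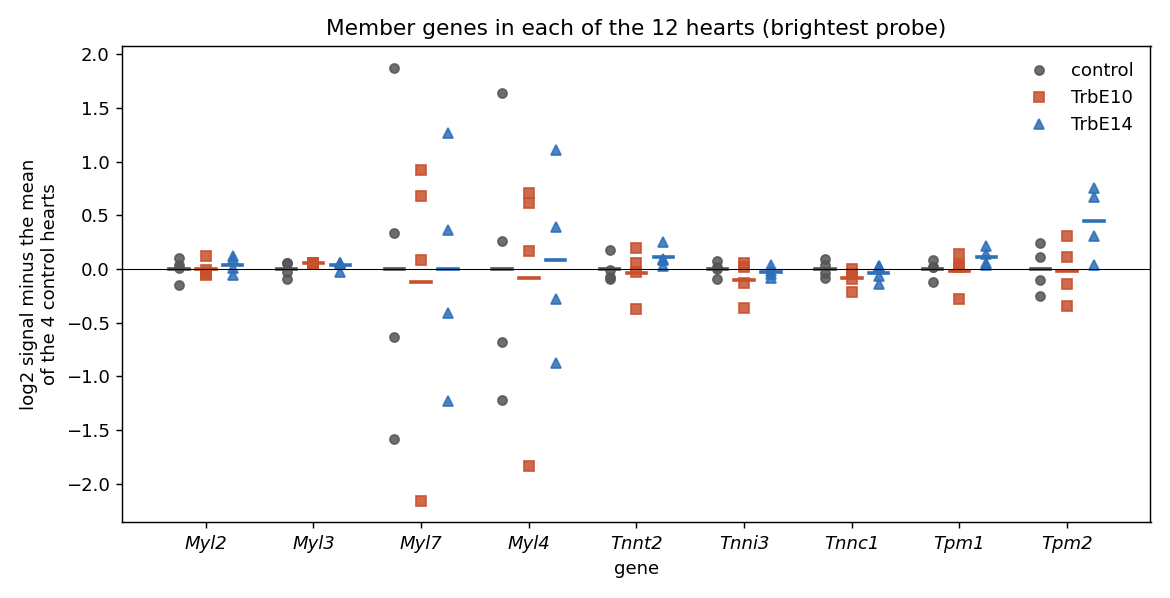
Log2 signal of the brightest probe of each of the 9 measured genes in each heart, minus the mean of the 4 control hearts (vertical axis, log2 units); short bars are group means. Over the 12 hearts Myl7 and Myl4 scatter over 4.03 and 3.47 log2 units, with within-group ranges of 2.49 to 3.45 and 1.99 to 2.86, while Myl2, Myl3, Tnni3, Tnnc1 and Tpm1 span at most 0.49.

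The ventricular light chains differed little between hearts and by no more between groups. Myl2, the ventricular regulatory chain, had log2 signals of 17.30, 17.32, 17.14 and 17.39 in the control hearts, 17.41, 17.28, 17.23 and 17.25 in the TrbE10 hearts, and 17.41, 17.38, 17.23 and 17.30 in the TrbE14 hearts. The groups overlapped throughout, and the extremes of the 12 hearts were 1.2-fold apart. The difference from control was 0.00 (SE 0.08, 95% confidence interval -0.17 to 0.18, adjusted p = 0.990) in TrbE10 and 0.04 (SE 0.08, interval -0.14 to 0.22, adjusted p = 0.842) in TrbE14. After quantile normalization these intervals leave room for a change of at most 1.13-fold and 1.16-fold in either direction. Under 75th-percentile scaling the differences were -0.12 (interval -0.34 to 0.10) in TrbE10 and -0.035 (interval -0.25 to 0.18) in TrbE14.

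Myl3, the ventricular essential chain, was among the 3 brightest probes of every array, where quantile normalization gives the top ranks the same values, and 9 of the 12 hearts stood at the common maximum of 18.32. On the scale of the array's 75th percentile, which does not fix the top ranks, control hearts spanned 18.21 to 18.39, TrbE10 hearts 18.16 to 18.41 and TrbE14 hearts 18.17 to 18.43. The groups overlapped on this scale too. The scanner's software marked 0 spots as saturated. A second probe for Myl2, at chr5:122555230-122555289 and annotated to a single Ensembl transcript, was much dimmer and less steady than the brightest one, between 10.31 and 11.04 in control, 8.69 and 11.26 in TrbE10, and 9.35 and 11.08 in TrbE14 hearts. The dimmer probe was lowest in TrbE10 heart 4 and in TrbE14 hearts 3 and 4, where the brightest probe read 17.25, 17.23 and 17.30, and its group differences of -0.50 (SE 0.55, adjusted p = 0.703) and -0.60 (SE 0.55, adjusted p = 0.639) did not pass the test.

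The cardiac troponins varied little as well. Tnnc1, which binds calcium and is shared with slow skeletal muscle, had log2 signals of 15.88, 15.76, 15.71 and 15.83 in control, 15.75, 15.80, 15.70 and 15.58 in TrbE10, and 15.82, 15.73, 15.83 and 15.65 in TrbE14 hearts. Tnni3, the inhibitory subunit of the adult heart, had 15.96, 15.79, 15.88 and 15.90 in control, 15.94, 15.91, 15.76 and 15.52 in TrbE10, and 15.93, 15.84, 15.86 and 15.80 in TrbE14 hearts. TrbE10 heart 4 was the lowest of the 12 for both genes, and otherwise the groups overlapped. The differences in TrbE10 were -0.09 (SE 0.08, adjusted p = 0.638) for Tnnc1 and -0.10 (SE 0.10, adjusted p = 0.639) for Tnni3, and those in TrbE14 were -0.04 (adjusted p = 0.851) and -0.03 (adjusted p = 0.913). The 95% intervals reached from -0.26 to 0.14 for Tnnc1 and from -0.32 to 0.18 for Tnni3 over both mutants. Under 75th-percentile scaling the TrbE10 differences were -0.19 (limma adjusted p = 0.315) for Tnnc1 and -0.20 (adjusted p = 0.399) for Tnni3. Those in TrbE14 were -0.13 (adjusted p = 0.538) and -0.11 (adjusted p = 0.672).

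Tnnt2, which anchors the troponin complex to tropomyosin, lay between 16.37 and 16.64 in control, 16.09 and 16.66 in TrbE10, and 16.49 and 16.71 in TrbE14 hearts. TrbE10 heart 2 was the lowest of the 12. The differences were -0.04 (SE 0.12, adjusted p = 0.909) in TrbE10 and 0.11 (SE 0.12, adjusted p = 0.692) in TrbE14. Under 75th-percentile scaling they were -0.16 (limma adjusted p = 0.495) and 0.05 (adjusted p = 0.852). The paper names Tnnt2 among its deregulated contractile genes, from its array analysis and quantitative PCR, whereas no test run here called it. Those tests did not include the paper's SAM over all groups at once.

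Tnni1, the fetal troponin I, was at background in most hearts of every group. Its probe was well above background on 3 of 12 arrays, 1 in each group (control heart 1, TrbE10 heart 1 and TrbE14 heart 3). Its log2 signals, between 3.16 and 4.93 in control, 4.08 and 5.38 in TrbE10, and 2.53 and 4.74 in TrbE14 hearts, lay around the lowest signal that passed as well above background, which was 3.79 to 4.80 on the 12 arrays. In each group 3 of 4 hearts thus give a bound and no level. Myh7, the heavy chain that the mouse ventricle also uses before birth, was higher by 3.05 (SE 0.36, adjusted p = 0.00217) in TrbE10 and by 2.46 (SE 0.36, adjusted p = 0.0107) in TrbE14. Myh6, the adult heavy chain, differed by 0.14 (adjusted p = 0.448) and -0.21 (adjusted p = 0.332).

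**Figure D2:**
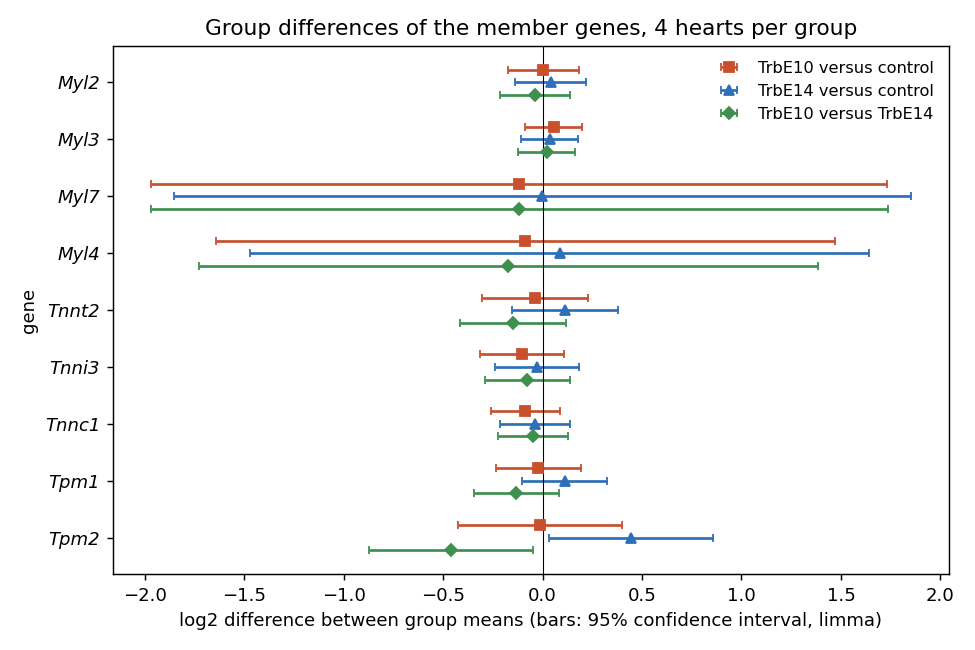
Log2 difference between group means of each measured gene (horizontal axis), with 95% confidence intervals from limma, for both mutants against control and for TrbE10 against TrbE14. Intervals are narrow for Myl2, Myl3, Tnni3 and Tnnc1 and wide for Myl7 and Myl4, and those of Tpm2 lie off 0 for TrbE14 against control (0.03 to 0.86) and for TrbE10 against TrbE14 (-0.87 to -0.05).

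The atrial light chains differed from heart to heart far more than from group to group. Myl7, the atrial regulatory chain, had log2 signals of 8.68, 10.59, 12.14 and 9.63 in control hearts 1 to 4, of 11.18, 8.10, 10.34 and 10.94 in TrbE10 hearts, and of 9.85, 11.53, 9.03 and 10.62 in TrbE14 hearts. Myl4, the atrial essential chain, had 11.72, 13.21, 14.58 and 12.27 in control, 13.56, 11.11, 13.11 and 13.65 in TrbE10, and 12.66, 14.05, 12.07 and 13.34 in TrbE14 hearts. Control heart 3 was the highest and TrbE10 heart 2 the lowest of the 12 for both genes, and each group held both high and low hearts.

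Between these extremes lay a 16.4-fold range for Myl7 and an 11.1-fold range for Myl4. All 12 arrays were well above background for both genes. The residual SD within groups was 1.33 for Myl7 and 1.11 for Myl4 on the log2 scale, against a median of 0.22 over 24586 filtered probes with complete values, which placed them at the 99.4 and 99.0 percentile. The brightest probes of Myl3, Tnnc1 and Myl2 stood at the 0.220, 5.58 and 6.30 percentile. The place of Myl3 rests on values that the normalization fixed. The group differences were -0.12 (SE 0.84, adjusted p = 0.964) in TrbE10 and 0.00 (SE 0.84, adjusted p = 1.00) in TrbE14 for Myl7, and -0.09 (SE 0.71, adjusted p = 0.968) and 0.09 (SE 0.71, adjusted p = 0.964) for Myl4. With this spread the 95% intervals reached 3.92-fold for Myl7 and 3.12-fold for Myl4 at their widest end. Changes up to that size in that direction were not excluded with 4 hearts per group.

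**Figure D3:**
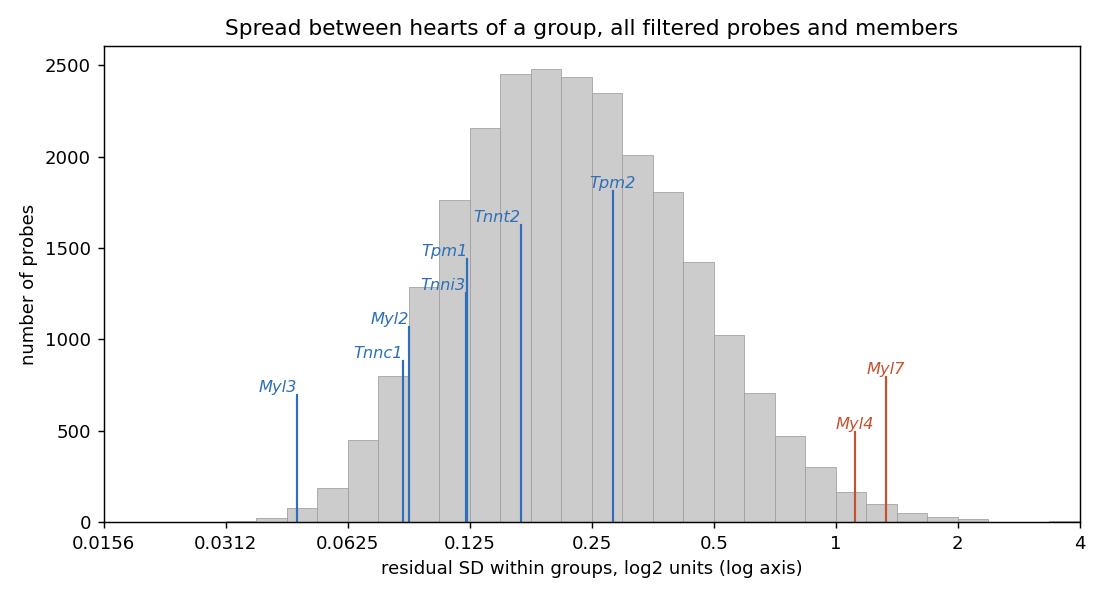
Number of filtered probes (vertical axis) by residual SD between hearts of the same group (horizontal axis, log2 units on a log scale), with the brightest probe of each measured gene marked by a line whose height carries no value. Myl4 and Myl7 sit in the upper tail at 1.11 and 1.33, and Myl2, Myl3, Tnnc1 and Tnni3 below the median of 0.22.

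Myl4 and Myl7 moved together. Over the 12 hearts their signals had a Pearson r of 0.995 (two-sided permutation p = 1e-05, Benjamini-Hochberg adjusted p = 0.00036 over 36 pairs of the 9 genes) and a Spearman rho of 0.993 (permutation p = 1e-05, adjusted p = 0.00036), 1e-05 being the smallest p that 100000 resamples can give. Without the 2 hearts farthest from the median of Myl4 the r was 0.990, and with the group means taken out it was 0.996. Myl7 rose by 1.18 log2 units for each unit of Myl4, with a residual SD of 0.13. All groups, on both slides, lay along 1 line. Among the remaining pairs, Tnni3 and Tnnc1 had an r of 0.828 (permutation p = 0.00071, adjusted p = 0.0128), which fell to 0.799 with group means taken out and to 0.666 without the 2 hearts farthest from the median of Tnni3, and a rho of 0.713 (permutation p = 0.0116, adjusted p = 0.118). Sequences of 250 bases before the start of the pair that moved together, from RefSeq on GRCm38.p6, are given next. That of Myl7 lies at chr11:5898783-5899032 on the minus strand and that of Myl4 at chr11:104550413-104550662 on the plus strand.
Myl7: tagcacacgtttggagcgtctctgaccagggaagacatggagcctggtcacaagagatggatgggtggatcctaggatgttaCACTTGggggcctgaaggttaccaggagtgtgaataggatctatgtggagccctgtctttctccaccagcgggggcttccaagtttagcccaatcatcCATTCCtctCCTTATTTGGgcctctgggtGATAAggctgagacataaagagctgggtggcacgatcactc
Myl4: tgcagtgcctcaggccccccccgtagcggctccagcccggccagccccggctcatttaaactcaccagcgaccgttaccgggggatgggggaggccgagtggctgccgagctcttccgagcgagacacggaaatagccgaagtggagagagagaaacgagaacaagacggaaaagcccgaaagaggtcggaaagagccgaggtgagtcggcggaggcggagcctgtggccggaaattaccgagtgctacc

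Capitals in the Myl7 window mark 4 motifs, which were searched on both strands and do not overlap. The E-box, CANNTG, began 168 bases before the start and was present in 66.2% of 32841 such windows of the genome. The motif CATTCC, the core that TEAD factors bind, began 70 bases before the start and was present in 12.6% of them. The CArG box, bound by serum response factor, began 61 bases before the start and was present in 1.5%. The last motif, bound by factors of the Gata family and spelled GATAA, began 41 bases before the start and was present in 22.6%. The Myl4 window held 0 matches to any of the 4. The 10 genes have 13 annotated starts in this set. The E-box lay before 12 of them, CATTCC before 5, GATAA before 4, and a CArG box before 2, those of Myl7 and Myl3. A match is a description of letters and not a site in use.

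Of the 8 atrial markers measured, Sln, Mybphl and Nppa put the control hearts in the same order as Myl7 and Myl4. Sln was high in every mutant heart whatever the level of Myl7. In control hearts 1, 4, 2 and 3, the rising order of Myl7, Sln, the inhibitor of the calcium pump that is prominent in the atrium, had log2 signals of 8.58, 9.31, 10.83 and 12.48, and Mybphl, an atrial and conduction-system relative of myosin-binding protein C, had 5.59, 6.40, 7.24 and 9.22. All 3 genes and Myl4 put the 4 controls in the same order. Nppa, the atrial natriuretic peptide, did so too, with 12.93, 13.87, 14.92 and 15.04. Dkk3, Kcnj3, Stard10 and Nr2f1 did not, and Bmp10 was at background in the controls. In the 8 mutant hearts Sln lay between 13.38 and 14.42, above every control, while Myl7 took values from 8.10 to 11.53 there. TrbE10 heart 2, the lowest of all for Myl7, had 13.54 for Sln and 8.56 for Mybphl.

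With group means taken out, r with Myl7 over the 12 hearts was 0.735 for Sln, 0.811 for Mybphl and 0.746 for Nppa. It was 0.823 for the mean log2 level of 8 atrial markers other than Myl4 and Myl7, a mean that takes in Bmp10. The 5 other single markers lay between -0.40 and 0.57. These values share arrays and normalization and are given as a description. Sln spanned 8.58 to 12.48 in control, 13.54 to 14.42 in TrbE10 and 13.38 to 13.87 in TrbE14 hearts. Mybphl spanned 5.59 to 9.22, 8.56 to 9.35 and 7.39 to 8.33 in the same order. For Sln and Mybphl the r with group means taken out thus rests mostly on the 4 controls. With group means left in, r was lower, at 0.317 for Sln, 0.563 for Mybphl, 0.450 for Nppa and 0.340 for the list mean, and among the 16 relations of Myl7 and Myl4 with single markers no permutation p adjusted by Benjamini-Hochberg was below 0.343 (the rho of Mybphl). The r of Nppa fell to 0.082 without the 2 hearts farthest from the median of Myl7, and that of Sln spans groups that do not overlap for Sln. With group means taken out, r with Myl7 was between -0.27 and 0.47 for the means of the 9 other lists. Among these were cardiomyocyte (0.314), smooth muscle (-0.157) and conduction system (0.249) markers. With group means left in, the 9 lay between -0.25 and 0.30, beside 0.340 for the atrial list.

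**Figure D4:**
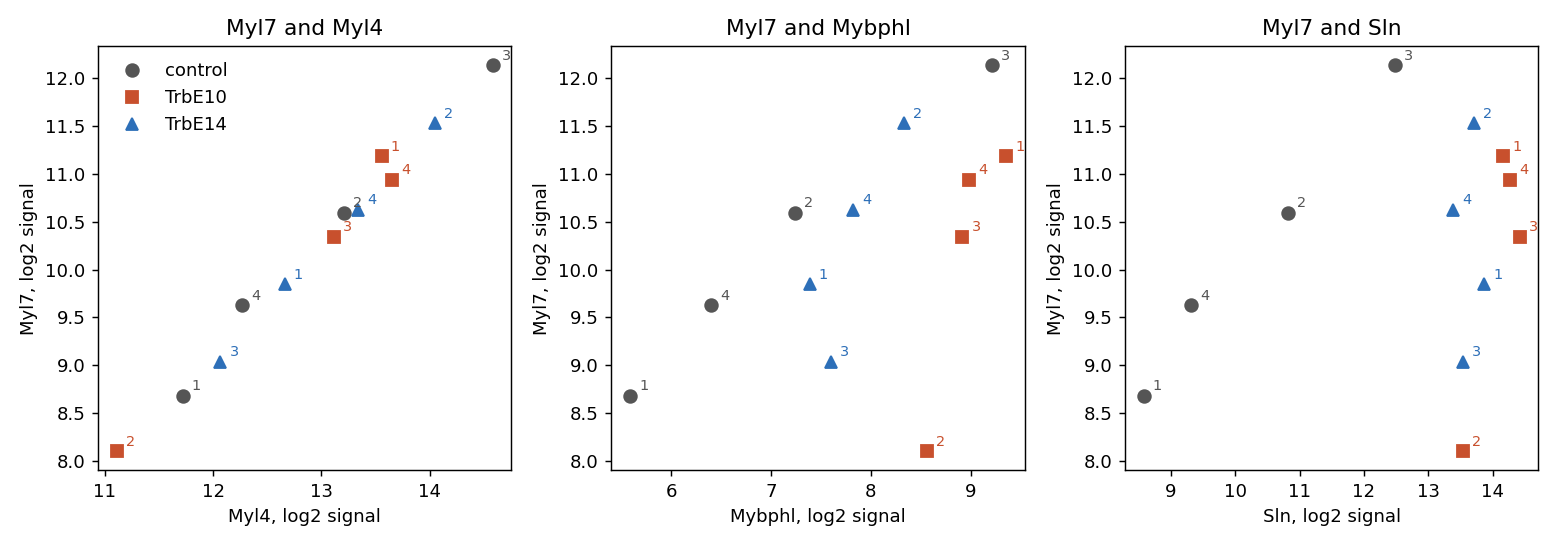
Log2 signal of Myl7 (vertical axes) against that of Myl4, Mybphl and Sln (horizontal axes) in the 12 hearts, numbered within each group. Myl4 puts all hearts on 1 line, whereas for Sln the 8 mutant hearts stand to the right of all 4 controls, between 13.38 and 14.42, with Myl7 between 8.10 and 11.53.

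Of the 9 atrial markers listed, 8 were measured. The log2 of their summed signal was 13.19 to 15.34 in control, 15.32 to 17.22 in TrbE10 and 15.87 to 16.39 in TrbE14 hearts. Nppa, the brightest of the 8, weighs most in that sum. Nppa differed by 2.07 (SE 0.54, limma adjusted p = 0.0860) in TrbE10 and 1.65 (adjusted p = 0.240) in TrbE14, and was not called in either. In TrbE10 3 of the 8 were called higher and 1 lower, against 1.28% and 0.649% of all genes, and in TrbE14 1 was called higher and 0 lower, against 0.533% and 0.128%. Their median log2 difference was 1.73 in TrbE10 and 1.07 in TrbE14. Sln was higher by 3.80 (SE 0.66, adjusted p = 0.0177) in TrbE10, and differed by 3.33 (adjusted p = 0.0511) in TrbE14. Dkk3 was higher by 1.62 (SE 0.35, adjusted p = 0.0459) in TrbE10. Bmp10, a trabecular growth factor, was well above background on 0 of 4 control and 4 of 4 arrays of each mutant. Against the detection bound of the controls it was at least 4.56-fold higher in TrbE10 and at least 5.17-fold higher in TrbE14. Bmp10 passed the detection limit only through the mutants. Its control values, 2.35 to 2.37, lay at background, so its limma call is no separate support. Bmp10 is 1 of the 3 called higher in TrbE10 and the 1 called higher in TrbE14. It also enters both medians given above, which would be lower without it. Stard10 fell by 0.66 (SE 0.14, adjusted p = 0.0482) in TrbE10. The part of atrial tissue in the Myl4 and Myl7 signals was not tested.

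Signals of Myl7 in the 6 hearts with Y-linked signal ran from 8.10 to 11.53 (median 9.83) and in the 6 without from 9.63 to 12.14 (median 10.47), and those of Myl4 from 11.11 to 14.05 (median 12.70) and from 12.27 to 14.58 (median 13.16). The ranges overlap. With Y-linked signal as a covariate the difference of TrbE14 from control was 0.48 for Myl7, and no call changed. The 3 other genes most like Myl7 among 18006 were Fgf12 (r = 0.902), Sugp1 (0.857) and Ccndbp1 (0.848), and those most like Myl4 were Fgf12 (0.885), Sugp1 (0.874) and Slc2a1 (0.831), all over 12 hearts. Picked as the highest of many, these values are a description.

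As a balance of isoforms within a heart, Myl7 minus Myl2, set to 0 at the control mean, was -0.12 ± 1.38 (SD, n = 4) in TrbE10 and -0.04 ± 1.03 in TrbE14, beside 0 ± 1.55 in control. Myl4 minus Myl3 was -0.14 ± 1.19 and 0.05 ± 0.87, beside 0 ± 1.32. Each group spanned both signs. The balance of Tnni1 and Tnni3 could not be given, since Tnni1 was at background.

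Of the 9 genes, Tpm2 came nearest to a difference between groups. Tpm2, by its brightest probe, had log2 signals of 10.27, 10.49, 10.13 and 10.62 in control, 10.68, 10.49, 10.24 and 10.03 in TrbE10, and 10.42, 11.04, 11.13 and 10.68 in TrbE14 hearts. TrbE14 hearts 2, 3 and 4 lay above every control and every TrbE10 heart, heart 4 only just so, and TrbE14 heart 1 lay among them. The difference was -0.01 (SE 0.19, adjusted p = 0.980) in TrbE10 and 0.44 (SE 0.19, interval 0.03 to 0.86, unadjusted p = 0.0369, adjusted p = 0.338) in TrbE14. Between the mutants it was -0.46 (SE 0.19, unadjusted p = 0.0320, adjusted p = 0.842), so that neither difference passed the test. An exact two-sided permutation test of each gave p = 0.114, where 4 hearts against 4 allow no p below 0.0286.

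The second Tpm2 probe gave 9.07, 9.21, 8.71 and 9.12 in control, 9.41, 9.15, 8.98 and 8.71 in TrbE10, and 8.81, 9.71, 9.72 and 9.29 in TrbE14 hearts. TrbE14 hearts 2 and 3 were again the highest. Its differences were 0.03 (SE 0.22, adjusted p = 0.960) in TrbE10 and 0.35 (SE 0.22, adjusted p = 0.491) in TrbE14.

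Some genes of smooth muscle varied with Tpm2 from heart to heart. The 3 genes most like it among 18006 were Tagln (r = 0.919), Myh11 (0.919) and Actg2 (0.883), over 12 hearts, and all of them make contractile proteins of smooth muscle. Tagln had log2 signals of 12.20, 12.87, 12.04 and 12.88 in control, 12.67, 12.43, 12.65 and 12.28 in TrbE10, and 12.73, 13.51, 13.80 and 12.99 in TrbE14 hearts. Tagln was highest in the same 3 TrbE14 hearts as Tpm2.

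The mean log2 level of 7 smooth muscle markers had an r of 0.917 with Tpm2, or 0.856 with group means taken out, while that of the 9 other lists lay between -0.17 and 0.41. The log2 of the summed signal of the 7 markers was 15.67 to 16.14 in control, 15.72 to 16.27 in TrbE10 and 15.86 to 16.53 in TrbE14 hearts, and their median log2 difference was -0.06 in TrbE10 and 0.63 in TrbE14. The 7 did not all run alike. Acta2, smooth muscle actin, had 15.37, 14.59, 14.98 and 13.97 in the TrbE14 hearts, highest in heart 1 where Tpm2 was lowest. As a group mean Acta2 differed from control by 0.69 (adjusted p = 0.375) in TrbE10 and by 0.75 (adjusted p = 0.390) in TrbE14. In TrbE14 Myocd, a coactivator of smooth muscle genes, differed by -0.39 (adjusted p = 0.402) and Smtn, smoothelin, by -0.05 (adjusted p = 0.880). Of the 7, 0 were called by limma in either mutant, where 1.93% of all genes were in TrbE10 and 0.66% in TrbE14. With shares this low, 0 of 7 says little about these markers. Acta2, Myocd and Smtn were named after their values were seen. The part of vessel muscle in the Tpm2 signal was not tested.

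**Figure D5:**
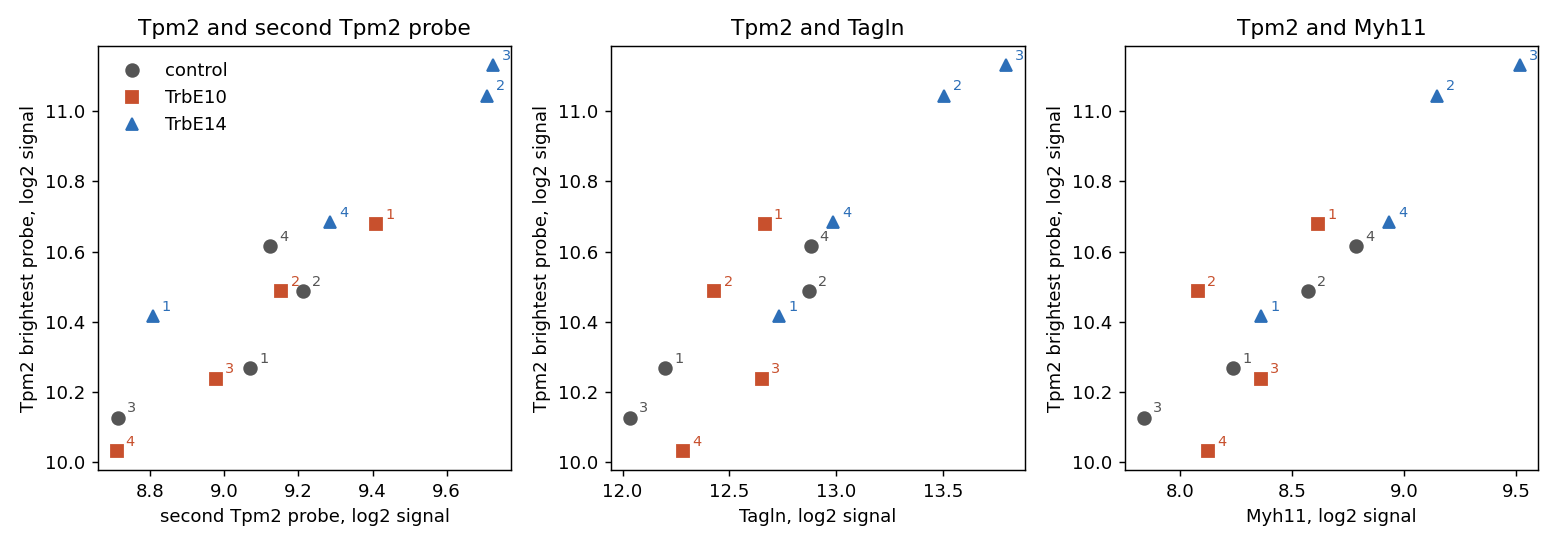
Log2 signal of the brightest Tpm2 probe (vertical axes) against that of the second Tpm2 probe, Tagln and Myh11 (horizontal axes) in the 12 hearts, numbered within each group. TrbE14 hearts 2 and 3 are the highest on every axis, with Tpm2 at 11.04 and 11.13.

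Tpm1, the striated tropomyosin, was read by 6 probes, which lie in different parts of the gene on chromosome 9 and so can read different splice forms. The brightest, at chr9:66875796-66875855 on the minus strand, ranged from 17.58 to 17.78 in control hearts, and the TrbE10 hearts from 17.42 to 17.84 and the TrbE14 hearts from 17.73 to 17.91. Its differences were -0.02 (SE 0.10, adjusted p = 0.941) and 0.11 (SE 0.10, adjusted p = 0.620), and a second bright probe that overlaps it had 0.12 (adjusted p = 0.728) and 0.12 (adjusted p = 0.728). The groups overlapped for both.

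A dimmer Tpm1 probe at chr9:66871166-66871225, whose last 3 bases are a stop codon in capitals, read a form with another end.
Tpm1, dimmer probe: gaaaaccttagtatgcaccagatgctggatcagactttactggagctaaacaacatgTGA
Its signals were 9.42, 9.12, 8.99 and 9.24 in control, 9.26, 9.08, 9.14 and 8.82 in TrbE10, and 9.36, 9.47, 9.61 and 9.21 in TrbE14 hearts. It differed by -0.34 (SE 0.13, unadjusted p = 0.0213, adjusted p = 0.791) between TrbE10 and TrbE14, with 3 of 4 TrbE14 hearts above every TrbE10 heart. Against control it differed by -0.12 (adjusted p = 0.687) and 0.22 (adjusted p = 0.465). The 3 remaining Tpm1 probes differed by -0.06 to 0.02 in TrbE10 and by -0.29 to 0.14 in TrbE14, and none passed the test. Tpm2 minus Tpm1 within a heart, set to 0 at the control mean, was 0.01 ± 0.33 (SD, n = 4) in TrbE10 and 0.33 ± 0.35 in TrbE14, beside 0 ± 0.20 in control, and the groups overlapped.

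Of 30 other genes of the thin and thick filaments, 27 were measured, and 2 of them were called in TrbE10, Myh7 higher and Tnni2, fast skeletal troponin I, lower, where 1.93% of all genes were called. Tnni2 had log2 signals of 9.16, 9.78, 9.37 and 9.25 in control, 7.58, 8.37, 8.34 and 7.76 in TrbE10, and 8.54, 8.76, 7.89 and 8.79 in TrbE14 hearts. Every mutant heart lay below every control. Tnni2 was also the 1 gene called among the 7 measured of 14 skeletal muscle markers, where 1.93% of all genes were called in TrbE10. Their summed signal was, as log2, 13.33 to 14.28 in control, 14.01 to 15.01 in TrbE10 and 13.86 to 14.90 in TrbE14 hearts. Their mean log2 level was 8.48 to 9.22, 8.56 to 9.12 and 8.70 to 8.91 in the same order. Myl1, the brightest of the 7, differed by 1.25 (SE 0.48, limma adjusted p = 0.233) in TrbE10 and 0.83 (adjusted p = 0.466) in TrbE14. The median log2 difference of the 7 was -0.13 in TrbE10 and 0.06 in TrbE14. The part of skeletal muscle was not tested. Tnni2 fell by 1.38 (SE 0.24, adjusted p = 0.0193) in TrbE10 and differed by -0.89 (SE 0.24, adjusted p = 0.152) in TrbE14. In TrbE14 Myh7 was the 1 gene called of the 27, where 0.66% of all genes were. The median log2 difference of the 27 was 0.06 in TrbE10 and 0.10 in TrbE14. Of 11 genes of the phosphorylation of light chains and troponin (kinases, phosphatase subunits and Pln, a target of the same kinase as Tnni3), among them Mylk3, the cardiac light chain kinase, all 11 were measured and 0 were called by limma in either mutant. Mylk3 differed by -0.42 (SE 0.21, adjusted p = 0.348) in TrbE10 and -0.49 (SE 0.21, adjusted p = 0.342) in TrbE14. Among markers of other cells, 4 of 7 for macrophages (Csf1r, C1qa, C1qc and Cd68, named after their values were seen) and 1 of 7 for fibroblasts (Dcn, likewise) were called higher in TrbE10, against 1.28% of all genes, and Csf1r and Dcn in TrbE14, against 0.533%, while 0 of 6 endothelial and 0 of 6 measured conduction system markers were called by limma in either mutant.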

How the data were processed

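The authors deposited, per array, the Agilent Feature Extraction 10.5 output, with a processed signal that is a linear, background-subtracted intensity, and a series-wide table of quantile-normalized, background-filtered log2 values. The linear intensities were used. In R 4.3.3 with limma 3.58.1, control spots were removed, outlier spots set to missing, log2 signals quantile normalized and spots of a probe averaged. Probes well above background on 3 of 4 arrays (75%) of any group were kept. The fit had 9 residual and 2.19 prior degrees of freedom, and adjusted p-values are Benjamini-Hochberg values from limma within a comparison. Scripts were tested on simulated data. Figures used Python 3.11.15 and matplotlib 3.10.9. The genes, marker lists and tests were chosen with earlier results of these data known. Named genes were all 10 members and the called genes of the filament, kinase and atrial lists. Also named were Nkx2-5, Myh6 and Myh7, and the 3 genes most correlated with Myl4, Myl7 and Tpm2. Nppa, Mybphl, Kcnj3, Nr2f1, Mylk3, Myl1, Ryr2, Atp2a2 and the probes compared between hearts were named after their values were seen. Quantile normalization fixes the values of the top ranks. Labels name separate mice only by replicate number, so p-values measure the spread between these samples. Alternatives were 75th-percentile scaling, normexp (offset 50), detection on 9 of 12 arrays instead, the unfiltered probes, the authors' log2 values, fits of 2 groups, a replicate block, Y-linked signal, SAM at 5%, any probe of a gene, and each array left out. The authors' table was matched by spot number (22114 rows, r of at least 0.997 with each array's own signal); its medians lay between 8.58 and 8.60, so it is not centred at 0.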

Additional observations from a re-analysis of the deposited data

Results flagged for a closer look

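In 48 groups of 4 hearts (16 probes, 3 groups), 2 values stood apart from the other 3 of their group, where chance gives about 1 in 20. The dimmer Myl2 probe had its lowest control value in control heart 1, at 10.31 against 10.93 for the next, and the gap was 0.850 of the range. Myl3 had 18.24 in TrbE14 heart 4 against 18.32 in the others, which are at the common maximum of the normalization.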

How the results depend on the processing

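The number of the 9 genes called was 0 in each of the 3 comparisons under every alternative run, each array left out included, and 0 of 540 adjusted p-values of the single genes passed 0.05 (lowest 0.201, for Tpm2 in TrbE14 without TrbE14 replicate 1). The isoform balances moved by less than 1 SD under every alternative run for them. The median over all genes was -0.08 in TrbE10 and -0.06 in TrbE14 under 75th-percentile scaling.

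Signs turned only for differences that were not called. In TrbE10, 75th-percentile scaling gave -0.12 for Myl2 and -0.0097 for Myl3, and in TrbE14 -0.035 for Myl2. Between the mutants Myl3 was -0.025. With Y-linked signal as a covariate, Myl4 was 0.095 and Myl7 0.12 in TrbE10 and Myl7 0.48 in TrbE14. Normexp gave -0.00044 for Myl2 and 0.0082 for Tpm2 in TrbE10, -0.016 for Myl2, 0.018 for Myl7 and 0.0040 for Tnni3 in TrbE14, and 0.015 for Myl2 between the mutants. The authors' values gave -0.00050 for Myl2 in TrbE10. The cause was not tested.

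With each array left out, the TrbE10 difference ranged from -0.046 to 0.038 for Myl2, from -0.49 to 0.50 for Myl4, from -0.64 to 0.56 for Myl7, from -0.12 to 0.074 for Tnnt2, from -0.075 to 0.063 for Tpm1 and from -0.12 to 0.094 for Tpm2. In TrbE14 it ranged from -0.0085 to 0.075 for Myl2, from -0.32 to 0.63 for Myl4 and from -0.53 to 0.62 for Myl7, and between the mutants from -0.49 to 0.41 for Myl4, from -0.53 to 0.56 for Myl7 and from -0.13 to 0.011 for Tnni3. For Myl4 and Myl7 the ends came without control replicate 1, control replicate 3, TrbE10 replicate 2 and TrbE14 replicate 3. The Tpm2 difference in TrbE14 ran from 0.34 without TrbE14 replicate 3 to 0.58 without TrbE14 replicate 1.

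Same-numbered hearts correlated between -0.24 and 0.48, and 6 of 12 arrays correlated best with their own number, so the numbers were not taken as pairs; with the replicate block 0 genes were called in each comparison. The number of arrays limits the precision.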
